A study of Mus musculus with 8 samples.

Results

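Drd1, Drd2, Adora2a, Gpr6, Rgs9, Ppp1r1b, Syndig1l, Pde10a and Adcy5 are genes of the medium spiny neurons, the principal neurons of the striatum. These 9 genes were selected by symbol from the 55414 genes of a mouse RNA-seq count table. They were chosen because striatal genes differed between the naive brain groups and were high in the libraries labelled MRX-2843 tumor. All 9 were among the 24356 genes that passed the filter on low counts.

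The data are read counts per gene from 8 libraries in 4 groups of 2, which cross treatment (vehicle or MRX-2843) with tissue (naive brain or tumor). Per the labels all 8 carry a ZFTA-RELA fusion as genotype, which drives supratentorial ependymoma, and the cell line field holds the drug's name in all of them. Mice in which MRI had shown a tumor were randomised to vehicle or to 50 mg/kg MRX-2843, an inhibitor of the kinases MERTK and FLT3, by gavage once daily for 5 days, and were killed 1 h after the last dose. The labels do not give the animals' age or strain, which brain region was dissected as naive tissue, whether it came from tumor-bearing mice, or whether the 2 libraries of a group are separate animals, so p-values may measure technical spread only.

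Before the results, some library facts bear on every group difference. Totals were 51150569 to 112938462 counts, and 3 counts, the limit that a count of 0 allows, correspond to 0.0281 to 0.0615 CPM (reads relative to the TMM-scaled size of the library). Intervals and limits of this kind cover counting error only. The share of mitochondrially encoded genes was 3.26 and 3.37% in vehicle tumor and 14.7 to 18.5% elsewhere. All MRX-2843 columns carry the number 909 and the vehicle columns 914 or 915, with no explanation, so treatment and this number cannot be told apart. Xist, an RNA made from the inactive X chromosome, was at 526 to 795 CPM with MRX-2843 and at 0.408 to 2.88 CPM with vehicle. The Y-linked Ddx3y had 0 counts with MRX-2843 and 32.3 to 76.2 CPM with vehicle. Treatment and this difference in sex-linked genes therefore cannot be told apart either, and its part in the levels below was not tested. Igf2 and Fgf15 were at 190.9 and 195.7 CPM and at 121.1 and 131.4 CPM in vehicle tumor. The libraries labelled MRX-2843 tumor had 0.211 and 0.472 CPM of Igf2 and 0 counts of Fgf15, and 16.6 and 14.5 CPM of Ccnd1 against 254.4 and 251.7 CPM in vehicle tumor (genes chosen after their values were seen). Mean levels in vehicle and MRX-2843 naive brain were 0.366 and 0.334 CPM for Igf2 and 0 and 0.192 CPM for Fgf15. For Ccnd1 they were 20.1 and 12.3 CPM. By these 3 genes the libraries labelled MRX-2843 tumor differed from vehicle tumor and lay near naive brain, and the reason was not tested. The 6 genes of dividing cells summed to 221.7 and 221.9 CPM in vehicle tumor, 25.1 and 19.6 CPM in MRX-2843 tumor, 2.42 and 2.14 CPM in MRX-2843 naive brain and 2.61 and 4.39 CPM in vehicle naive brain, and all 6 were higher in MRX-2843 tumor than in MRX-2843 naive brain (median log2 fold change 3.30).

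Medium spiny neurons use GABA as their transmitter and receive glutamate from the cortex and dopamine from the midbrain. Those of the direct pathway carry the dopamine receptor D1 with substance P, and those of the indirect pathway carry D2 with enkephalin. D1 raises and D2 lowers cyclic AMP, which is made by adenylyl cyclase and broken down by phosphodiesterases, so the products of most of the 9 genes act on 1 signalling chain.

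By role, Drd1 (chromosome 13, GRCm38, 54051183 to 54055705, minus strand) encodes the D1 receptor, which stimulates adenylyl cyclase. Drd2 (chromosome 9, 49340627 to 49408177, plus strand) encodes the D2 receptor, which inhibits it. Adora2a (chromosome 10, 75316877 to 75334784, plus strand) encodes the A2a adenosine receptor, and Gpr6 (chromosome 10, 41069977 to 41072285, minus strand) an orphan receptor coupled to stimulation of the cyclase; both mark the indirect pathway. Adcy5 (chromosome 16, 35154877 to 35305738, plus strand) encodes adenylyl cyclase 5, the main cyclase of the striatum, and Pde10a (chromosome 17, 8525372 to 8986648, plus strand) the phosphodiesterase that degrades cyclic nucleotides there. Rgs9 (chromosome 11, 109225355 to 109298129, minus strand) encodes a regulator that ends G protein signalling, with a striatal and a retinal splice form. Ppp1r1b (chromosome 11, 98348404 to 98357796, plus strand) encodes DARPP-32, a protein phosphatase inhibitor switched on by protein kinase A. Syndig1l (chromosome 12, 84677277 to 84698831, minus strand) encodes a membrane protein enriched in striatum.

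Promoters are shown for 4 members as examples of start regions that differ in the motifs of cyclic AMP and housekeeping control. Any link of these motifs to the levels was not tested. RefSeq (GRCm38.p6) start regions were at hand for 6 members, and the 250 bases before the start are printed. Capitals mark the cyclic AMP response element TGACGTCA, its half-site TGACG and the GC box GGGCGG, on either strand. The regions are chr10:41072291-41072540 on the minus strand for Gpr6, chr13:54055659-54055908 on the minus strand for the first Drd1 start, chr9:49340153-49340402 on the plus strand for Drd2 and chr16:35154614-35154863 on the plus strand for Adcy5.
Gpr6: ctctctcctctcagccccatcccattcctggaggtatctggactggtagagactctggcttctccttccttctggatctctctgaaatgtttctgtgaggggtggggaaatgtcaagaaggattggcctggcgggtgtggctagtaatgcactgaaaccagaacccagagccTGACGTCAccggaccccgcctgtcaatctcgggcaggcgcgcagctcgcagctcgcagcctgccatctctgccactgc
Drd1: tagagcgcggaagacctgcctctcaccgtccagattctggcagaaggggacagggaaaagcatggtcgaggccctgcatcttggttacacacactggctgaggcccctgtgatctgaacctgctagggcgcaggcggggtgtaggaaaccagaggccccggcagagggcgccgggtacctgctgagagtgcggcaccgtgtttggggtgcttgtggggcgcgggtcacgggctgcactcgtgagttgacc
Drd2: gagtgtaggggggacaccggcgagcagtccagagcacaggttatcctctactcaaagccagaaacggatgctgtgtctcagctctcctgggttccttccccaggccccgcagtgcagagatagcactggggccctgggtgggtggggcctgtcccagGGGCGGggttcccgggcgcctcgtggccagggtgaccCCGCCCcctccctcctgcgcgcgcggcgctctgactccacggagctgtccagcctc
Adcy5: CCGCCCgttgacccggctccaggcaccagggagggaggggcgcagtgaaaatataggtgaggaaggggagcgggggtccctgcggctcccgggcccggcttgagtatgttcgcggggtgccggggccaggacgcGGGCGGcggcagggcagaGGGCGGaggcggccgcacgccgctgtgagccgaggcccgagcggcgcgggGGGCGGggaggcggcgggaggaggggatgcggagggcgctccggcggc

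Gpr6 held the full cyclic AMP response element, first base at -78 from the start, within which the 2 half-site matches also fall. Of 32841 promoters of this length, 1.55% held the full element, 17.8% the half-site and 32.7% a GC box. No other member's region held the full element or a half-site. Adcy5 held 4 GC boxes, Drd2 held 2, and the first Drd1 region held none of the motifs searched. The second Drd1 start, Rgs9 and the first Pde10a start held 1 GC box each, at -133, -91 and -146. Rgs9 held a TATA box match (TATAAA) at -195, as did 12.4% of all promoters searched, and the second Pde10a start held none of the motifs. The matches describe letters in these windows only.

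All 9 genes followed 1 order of levels. Every library of the MRX-2843 groups lay above both vehicle naive brain libraries, and these lay above both vehicle tumor libraries, for 9 of 9 members. Since the genes were chosen on the naive groups and on the level in MRX-2843 tumor, this order is a description. It held for 5.33% of all genes tested. The values below are CPM in replicate 1 and replicate 2 of each group.

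**Figure D1:**
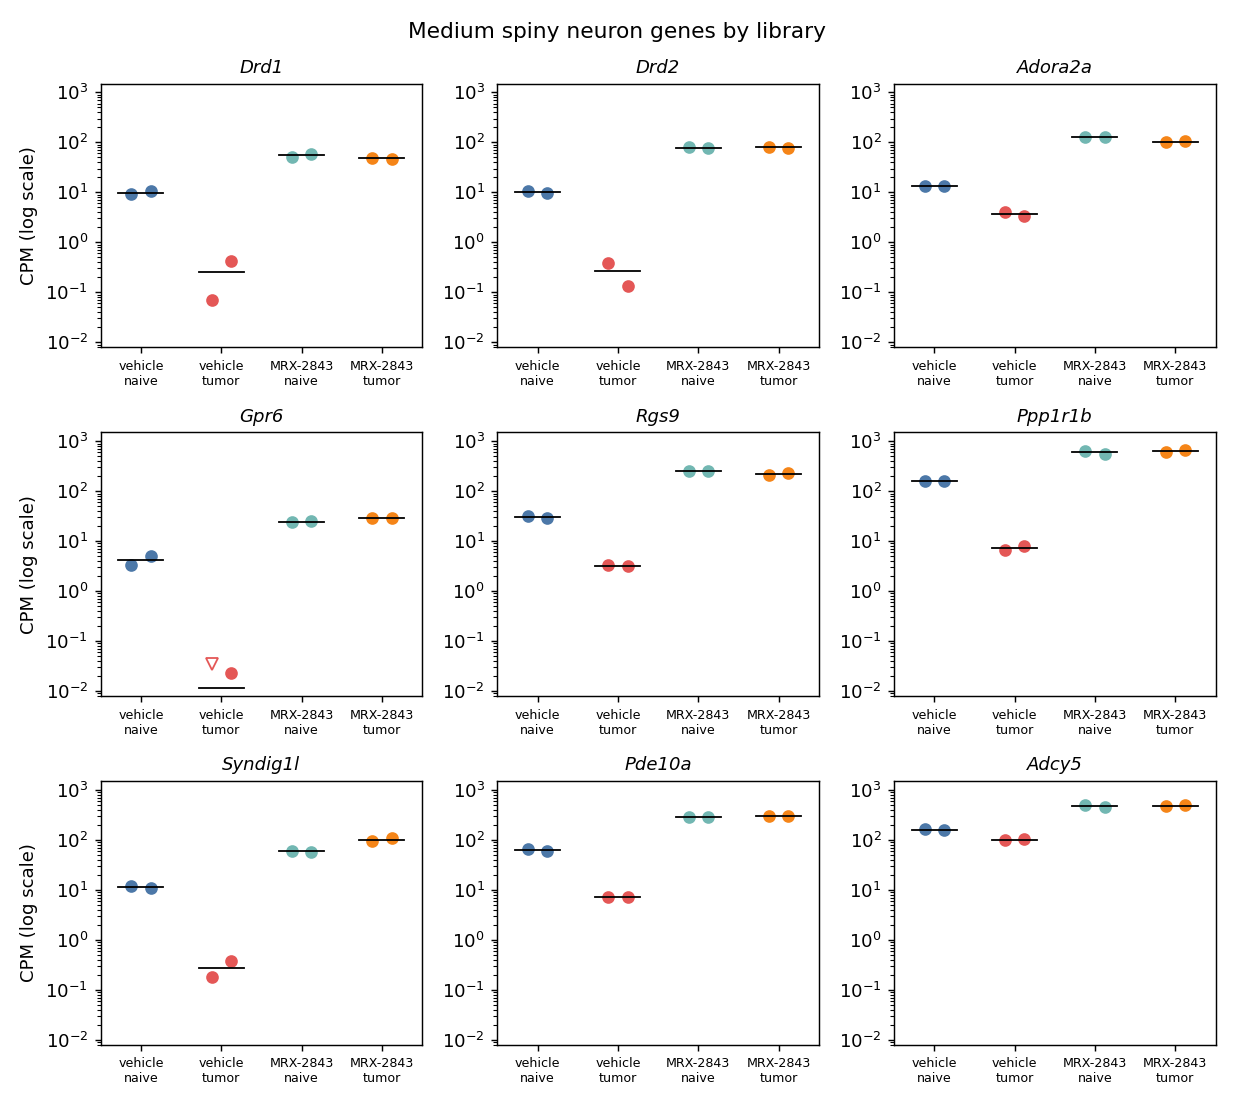
CPM of each of the 9 genes on a log axis, with 1 point per library and a bar at the group mean (2 libraries per group); the open triangle marks the limit that 0 counts of Gpr6 allow. Both MRX-2843 groups are highest, vehicle naive brain is in between, and vehicle tumor is lowest in every panel.

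Among the dopamine receptors, Drd1 was at 9.11 and 10.7 CPM in vehicle naive brain and at 0.0694 and 0.431 CPM in vehicle tumor. In the MRX-2843 groups it was at 50.3 and 59.4 CPM in naive brain and at 49.3 and 47.4 CPM in tumor. The vehicle tumor values rest on 6 and 38 reads, so this level is the least certain of the Drd1 levels. Drd2 was at 10.7 and 9.76 CPM in vehicle naive brain and at 0.393 and 0.136 CPM in vehicle tumor, from 34 and 12 reads. It reached 80.8 and 75.6 CPM in MRX-2843 naive brain and 81.2 and 78.3 CPM in the libraries labelled MRX-2843 tumor. The MRX-2843 groups overlapped for Drd2 and not for Drd1, and no other pair of groups overlapped for either receptor.

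Of the other receptors of the indirect pathway, Adora2a was at 13.1 and 13.6 CPM in vehicle naive brain, 129.1 and 127.6 CPM in MRX-2843 naive brain, and 101.1 and 105.4 CPM in MRX-2843 tumor. Its vehicle tumor values, 4.02 and 3.40 CPM, were the highest of the 4 receptors in that group. Gpr6 had 0 and 2 reads in vehicle tumor, against 3.39 and 5.09 CPM in vehicle naive brain. In the MRX-2843 groups Gpr6 was at 24.6 and 24.98 CPM in naive brain and 29.3 and 29.0 CPM in tumor. No 2 groups overlapped for Adora2a or Gpr6.

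For the enzymes of cyclic nucleotides, Adcy5 was at 166.1 and 158.2 CPM in vehicle naive brain and still at 98.4 and 103.1 CPM in vehicle tumor. It was at 495.6 and 466.4 CPM in MRX-2843 naive brain and 470.2 and 492.2 CPM in MRX-2843 tumor, which overlapped. Pde10a was at 66.4 and 60.2 CPM in vehicle naive brain and 7.17 and 7.27 CPM in vehicle tumor. The MRX-2843 groups had 292.1 and 293.7 CPM of Pde10a in naive brain and 307.0 and 308.2 CPM in tumor. On the log2 scale, Adcy5 had the smallest range of levels across groups among the members, and its vehicle tumor level was the nearest to that of vehicle naive brain.

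Downstream of the receptors, Ppp1r1b was at 158.7 and 162.9 CPM in vehicle naive brain, 6.62 and 7.95 CPM in vehicle tumor, 631.9 and 563.4 CPM in MRX-2843 naive brain and 604.4 and 674.3 CPM in MRX-2843 tumor. Rgs9 was at 31.2 and 29.5 CPM in vehicle naive brain, 3.32 and 3.16 CPM in vehicle tumor, 254.8 and 249.4 CPM in MRX-2843 naive brain and 214.9 and 229.2 CPM in MRX-2843 tumor. Syndig1l was at 12.3 and 10.98 CPM in vehicle naive brain, 0.185 and 0.374 CPM in vehicle tumor (16 and 33 reads), 61.7 and 57.6 CPM in MRX-2843 naive brain and 96.5 and 108.6 CPM in MRX-2843 tumor. Syndig1l was thus the member whose MRX-2843 groups lay farthest apart, while those of Ppp1r1b overlapped. An annotated antisense gene overlaps Ppp1r1b (1700003D09Rik, 0 to 159 reads per library) and another overlaps Syndig1l (Gm48573, 0 reads in all libraries); whether reads were counted by strand is not given in the sources used here.

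Levels between genes were compared as CPM per kilobase of annotated exon. Ppp1r1b was the most abundant member on this scale, with group means of 54.9 in vehicle naive brain, 204.1 in MRX-2843 naive brain and 218.4 in MRX-2843 tumor. Adcy5 came next with 22.6, 67.0 and 67.0 CPM per kilobase in these groups. In vehicle tumor the order turned, with Adcy5 at 14.0 and Ppp1r1b at 2.49 CPM per kilobase. The other 7 members were at 2.37 to 4.93 CPM per kilobase in vehicle naive brain, and Gpr6 was the lowest member in every group except MRX-2843 tumor, where Drd1 was lowest at 13.3.

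MRX-2843 naive brain exceeded vehicle naive brain for all 9 genes. The rule used this contrast, so the fold changes carry no test; 9.78% of all genes tested were called higher here. The log2 fold changes were 3.27 ± 0.08 (SE, 2 libraries per group) for Adora2a, 3.05 ± 0.07 for Rgs9 and 2.93 ± 0.13 for Drd2, or 9.62-fold, 8.30-fold and 7.62-fold. They were 2.55 ± 0.19 for Gpr6, 2.47 ± 0.19 for Drd1, 2.36 ± 0.11 for Syndig1l and 2.21 ± 0.06 for Pde10a. The smallest were 1.89 ± 0.08 for Ppp1r1b and 1.57 ± 0.05 for Adcy5, or 3.71-fold and 2.97-fold. The members' median was 2.47, beside 0.02 for all genes tested.

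**Figure D2:**
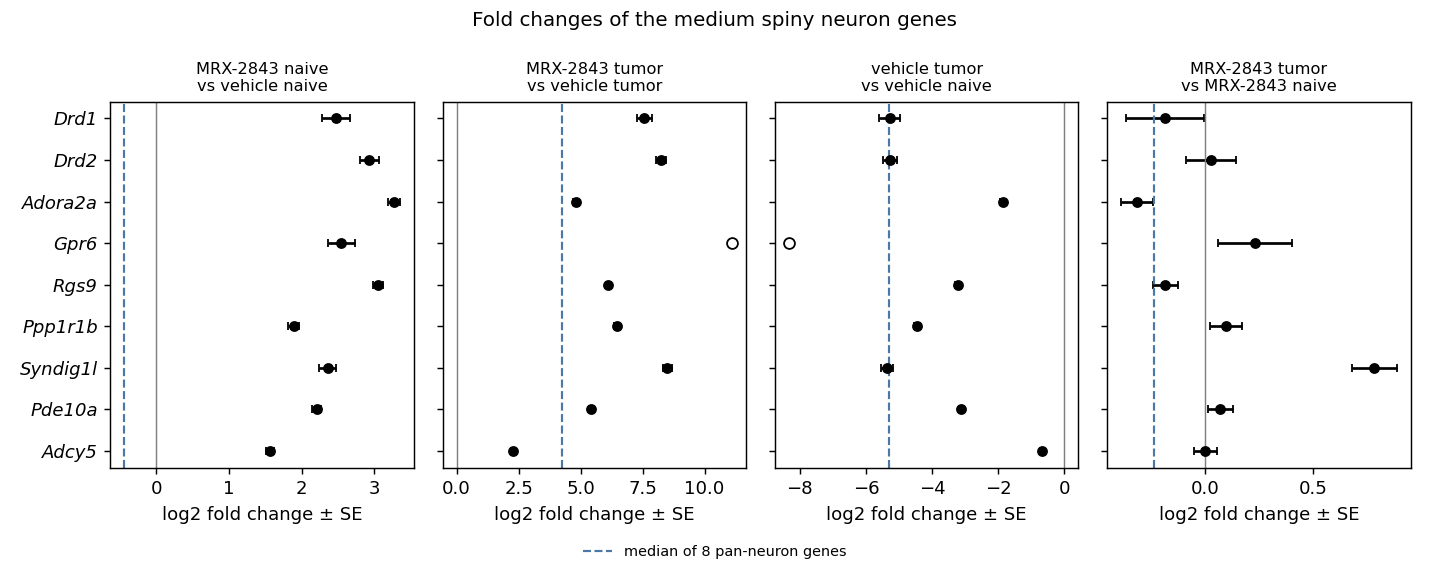
Log2 fold change of each gene in the 4 comparisons, as points with SE bars (2 libraries per group), and the median of 8 pan-neuron genes as a dashed line; the horizontal scales differ. The open points for Gpr6 depend on the prior count, because vehicle tumor had 2 reads of it. The 9 genes lie above the pan-neuron median in both comparisons of MRX-2843 with vehicle except Adcy5 in tumor.

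The libraries labelled MRX-2843 tumor exceeded vehicle tumor for all 9 genes as well, again a description, where 30.6% of all genes tested were called higher. The log2 fold changes were 8.51 ± 0.17 for Syndig1l, 8.23 ± 0.20 for Drd2 and 7.58 ± 0.29 for Drd1. They were 6.45 ± 0.10 for Ppp1r1b, 6.10 ± 0.08 for Rgs9, 5.41 ± 0.07 for Pde10a, 4.80 ± 0.09 for Adora2a and 2.26 ± 0.06 for Adcy5. Gpr6 had 3383 reads in MRX-2843 tumor and 2 in vehicle tumor, a ratio of 2543 with a 95% counting interval of 703 to 21005 after scaling. Where vehicle tumor had few reads, the size of the value, but not its direction, depended on the vehicle tumor library kept. Without vehicle tumor replicate 1 the fold changes were 6.80 for Drd1, 9.17 for Drd2 and 8.09 for Syndig1l, and without replicate 2 they were 9.41, 7.66 and 9.10. The fitted value of Gpr6, which depends on the prior count, was 10.21 without replicate 1 and 14.01 without replicate 2.

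Within vehicle, all 9 members were lower in tumor than in naive brain, where edgeR's quasi-likelihood test called 30.8% of all genes tested lower. No test is given for the members, although one was planned, because both groups took part in choosing them. The log2 fold change was -3.13 ± 0.07 for Pde10a, -4.46 ± 0.09 for Ppp1r1b and -3.23 ± 0.08 for Rgs9. Among the receptors it was -5.29 ± 0.30 for Drd1, -5.27 ± 0.21 for Drd2 and -1.84 ± 0.09 for Adora2a. Gpr6 had 578 reads in vehicle naive brain, a ratio of 369 to vehicle tumor with a 95% counting interval of 102 to 3054. Syndig1l was at -5.36 ± 0.19 and Adcy5 at -0.69 ± 0.05, the value nearest 0 of the 9. All 9 values stayed below 0 in every alternative run, but the size of those with few vehicle tumor reads depended on the vehicle tumor library kept. Without vehicle tumor replicate 1 the log2 values were -4.51 for Drd1, -6.21 for Drd2 and -4.95 for Syndig1l, and without replicate 2 they were -7.12, -4.70 and -5.96. For Gpr6 they were -7.43 without replicate 1 and -11.23 without replicate 2, fitted values that depend on the prior count. In bulk tissue, fewer cells of a type and less RNA per cell cannot be told apart.

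The 2 MRX-2843 groups were close for most members, and no test is given because the level in MRX-2843 tumor chose the genes. Libraries did not overlap for 6 members, 3 of them higher in tumor (Gpr6, Syndig1l and Pde10a), beside 29.0% of all genes, and 3 lower (Drd1, Adora2a and Rgs9), beside 28.7%. The log2 difference was 0.78 ± 0.10 for Syndig1l, 0.23 ± 0.17 for Gpr6, 0.10 ± 0.07 for Ppp1r1b and 0.07 ± 0.06 for Pde10a. It was 0.03 ± 0.12 for Drd2, 0.00 ± 0.05 for Adcy5, -0.18 ± 0.06 for Rgs9, -0.18 ± 0.18 for Drd1 and -0.31 ± 0.07 for Adora2a. The values for Drd2 and Adcy5 changed sign between the alternatives run, and that for Syndig1l did not, at 0.70 to 0.87.

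Neuron content was followed with 8 pan-neuron genes (Snap25, Rbfox3, Syt1, Syp, Stmn2, Map2, Nefl and Eno2), most of which encode synaptic or cytoskeletal proteins. Their summed level was 6148 and 6077 CPM in vehicle naive brain, 444.1 and 446.2 CPM in vehicle tumor, 4338 and 4363 CPM in MRX-2843 naive brain and 3808 and 3768 CPM in MRX-2843 tumor. The 9 striatal genes summed to 471.1 and 461.0 CPM, 120.2 and 125.8 CPM, 2021 and 1918 CPM, and 1954 and 2072 CPM in the same order. The pan-neuron sum was thus not higher in the MRX-2843 groups than in vehicle naive brain, whereas the striatal sum was. This holds for the pan-neuron sum and not for each of its genes.

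The median pan-neuron log2 fold change was -0.44 for MRX-2843 naive brain against vehicle naive brain, 2.91 below the median of the striatal genes. For MRX-2843 tumor against vehicle tumor it was 4.27, which is 2.19 below the striatal median of 6.45. For vehicle tumor against vehicle naive brain it was -5.29, beside a striatal median of -4.46, and for MRX-2843 tumor against MRX-2843 naive brain it was -0.24, beside 0.03. Between the vehicle groups the pan-neuron median therefore fell further than the striatal median. Of the 8 pan-neuron genes, 1 was higher and 5 lower between the naive groups, 7 were higher and 1 lower between the tumor groups, 8 fell in vehicle tumor, and 4 fell and none rose from MRX-2843 naive brain to MRX-2843 tumor.

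Adcy5 made up 81.9% of the striatal sum in vehicle tumor and 34.8% in vehicle naive brain, 24.4% in MRX-2843 naive brain and 23.9% in MRX-2843 tumor (means of 2 libraries). Per 100 CPM of pan-neuron genes, the 9 genes summed with vehicle to 7.66 and 7.59 in naive brain and to 27.1 and 28.2 in tumor. Without Adcy5, left out after its values were seen, the other 8 summed to 4.96 and 4.98 in naive brain and to 4.90 and 5.10 in tumor with vehicle, which overlapped. With MRX-2843 they summed to 35.2 and 33.3 in naive brain and to 39.0 and 41.9 in tumor. The overlap of the vehicle groups rested on Rbfox3, the pan-neuron gene NeuN, which was at 228.1 and 236.2 CPM in vehicle naive brain and at 207.8 and 205.8 CPM in vehicle tumor. The other 7 pan-neuron genes summed to 5920 and 5841 CPM in vehicle naive brain and to 236.3 and 240.3 CPM in vehicle tumor. Per 100 CPM of these 7, a sum chosen after the data were seen, the 8 striatal genes were at 5.15 and 5.18 in naive brain and at 9.22 and 9.47 in tumor with vehicle. With MRX-2843 they were at 36.6 and 34.6 in naive brain and at 40.9 and 44.1 in tumor. For these 8 striatal genes the MRX-2843 groups lay above the vehicle groups by either sum, whereas the order of the vehicle groups depended on Rbfox3. With Adcy5 kept and Rbfox3 left out, all 9 striatal genes came to 7.96 and 7.89 in vehicle naive brain. Vehicle tumor then lay at 50.9 and 52.3, above the treated naive libraries (48.5 and 45.7) and below the treated tumor libraries (53.8 and 57.9). Whether vehicle tumor lay below MRX-2843 naive brain thus depended on the genes kept.

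**Figure D3:**
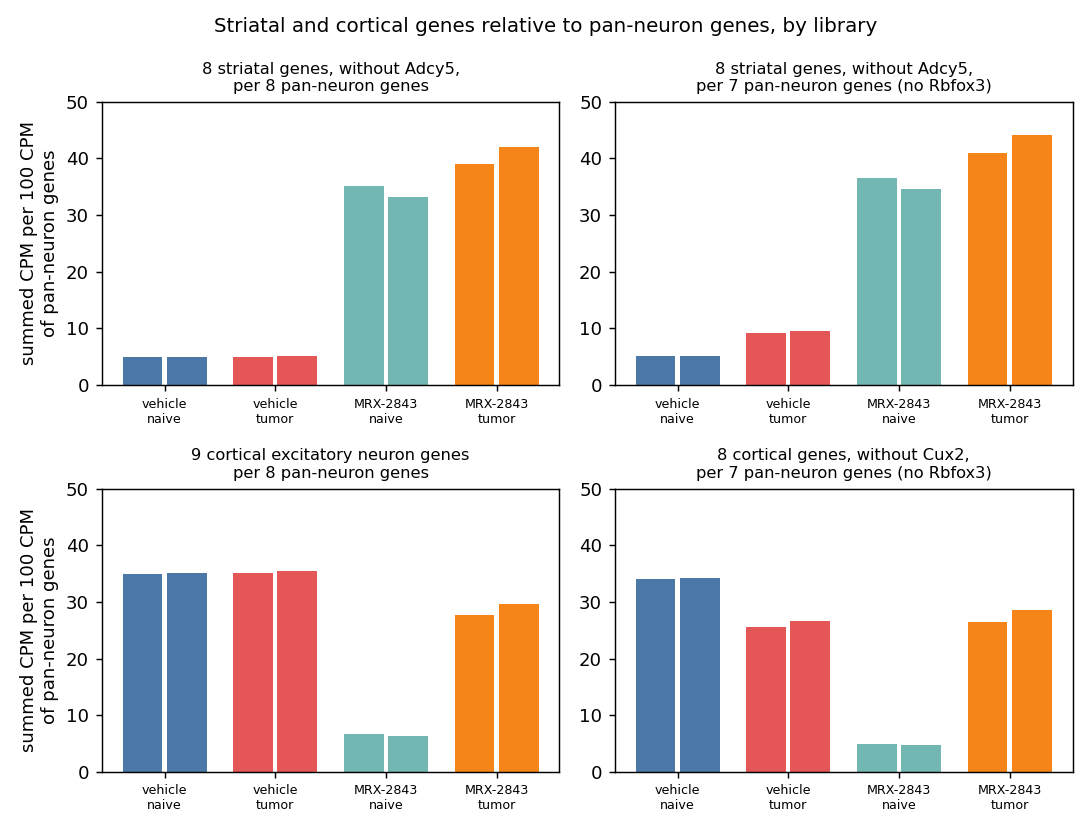
Summed CPM per 100 CPM of pan-neuron genes, with 1 bar per library, for 8 striatal genes without Adcy5 (top) and for cortical excitatory neuron genes (bottom), with all genes of the other sums on the left and without Rbfox3, and below also without Cux2, on the right. The vehicle tumor bars for the striatal genes lie at 4.90 and 5.10 on the left and at 9.22 and 9.47 on the right, and the MRX-2843 bars lie above the vehicle bars in both top panels.

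The balance of the pathways was read from ratios within a library. The log2 ratio of Drd1 to Drd2 was -0.24 and 0.13 in vehicle naive brain, and with MRX-2843 it was -0.68 and -0.35 in naive brain and -0.72 in both tumor libraries. Drd1 was thus lower relative to Drd2 in all 4 MRX-2843 libraries than in vehicle naive brain, without a test. In vehicle tumor the ratio was -2.41 in replicate 1 and 1.62 in replicate 2, from so few reads that no direction can be read. The peptide genes of the pathways, Tac1 (substance P) and Penk (enkephalin), were compared in the same way (Tac1 was chosen after its values were seen). The log2 ratio of Tac1 to Penk was -2.29 and -2.30 in naive brain and -3.26 and -3.47 in tumor with vehicle, and -2.06 and -1.95 in naive brain and -2.78 and -2.77 in tumor with MRX-2843. The receptors and the peptides differed in the order of the groups, since MRX-2843 naive brain had the highest Tac1 ratio but not the highest Drd1 ratio.

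Other genes of medium spiny neurons, 46 in 3 lists, were tested in the same fits, and edgeR's quasi-likelihood test called a gene at an adjusted p below 0.05. Between the naive groups 33 were higher and 4 lower in MRX-2843 (median log2 fold change 0.99, beside 0.02 for all genes, of which 9.78% were higher and 11.7% lower). Between the tumor groups 37 were higher and 6 lower in MRX-2843 (median 4.20, or 4.10 with Drd3 at its bound, beside 0.03 and 30.6% higher and 29.8% lower over all genes). In vehicle tumor against vehicle naive brain 9 were higher and 35 lower (median -3.26, or -3.29 without Drd3, beside -0.03 and 29.3% higher and 30.8% lower over all genes). In MRX-2843 tumor against MRX-2843 naive brain 14 were higher and 16 lower (median -0.15, beside 0.00 and 12.4% higher and 11.9% lower over all genes). The log2 difference of MRX-2843 from vehicle was more positive in tumor than in naive brain for 32 of the 46 and more negative for 8 by the interaction term of the same test, beside 26.3 and 25.3% of all genes, or 51.6% in either direction. Some genes had opposite signs in tumor and naive brain (examples chosen after their values were seen). Six3, Zfp503, Zfp521 and Adra2c were at -1.23, -1.38, -2.70 and -0.27 in tumor and at 3.91, 3.07, 1.26 and 1.11 in naive brain. Cnr1 and Itpr1 were among those that went the other way, at 1.46 and 3.18 in tumor and -0.88 and -0.64 in naive brain. Drd3, the dopamine D3 receptor, chosen after its values were seen, had 0 counts in both vehicle groups, 134 in MRX-2843 naive brain, at least 39.3-fold above the limit of 3 counts over the vehicle naive group, and 6 in MRX-2843 tumor.

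The transmitter and peptide genes were the most uniform list. All 6 (Penk, Tac1, Pdyn, Gad1, Gad2 and Slc32a1) rose in MRX-2843 naive brain (median 1.62) and in MRX-2843 tumor against vehicle tumor (median 5.00), and all 6 fell in vehicle tumor (median -4.91). Penk was at 110.9 and 108.6 CPM in vehicle naive brain, 2.82 and 3.07 CPM in vehicle tumor, 649.8 and 656.4 CPM in MRX-2843 naive brain and 493.2 and 505.8 CPM in MRX-2843 tumor. It rose by 2.57 ± 0.05 on the log2 scale between the naive groups (adjusted p = 2.9e-13). Gad2, which makes GABA in all GABA neurons, rose by 1.60 ± 0.07 (adjusted p = 7.2e-10) and Gad1 by 0.59 ± 0.11 (adjusted p = 0.0012). All 6 fell from MRX-2843 naive brain to MRX-2843 tumor (median -1.01). The 9 striatal genes, chosen partly for their level in MRX-2843 tumor, did not all fall. By edgeR's test Gad2 fell by 1.40 ± 0.07 (adjusted p = 4.3e-09) and Penk by 0.39 ± 0.05 (adjusted p = 3.5e-05).

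Of 25 further signalling genes, 16 rose and 4 fell in MRX-2843 naive brain (median 0.79), and 21 fell and 2 rose in vehicle tumor (median -3.41, or -3.55 without Drd3). In MRX-2843 tumor 22 were higher and 1 lower than in vehicle tumor (median 4.34, or 4.14 with Drd3 at its bound). Against MRX-2843 naive brain, 9 were higher and 4 lower there (median 0.18). Pde1b, a calcium-dependent phosphodiesterase, rose by 1.58 ± 0.06 between the naive groups (adjusted p = 8.3e-11) and was 4.34 ± 0.06 higher in MRX-2843 tumor than in vehicle tumor (adjusted p = 2e-16). Gng7, the G protein subunit that pairs with the striatal stimulatory G protein, rose by 1.58 ± 0.06 between the naive groups (adjusted p = 9e-11). Arpp21, which is also expressed in cortex, was at 400.5 and 393.5 CPM in vehicle naive brain and 399.9 and 392.7 CPM in MRX-2843 naive brain (log2 difference -0.00 ± 0.05), and fell by 5.69 ± 0.06 in vehicle tumor (adjusted p = 1.2e-17). The signalling list was therefore mixed between the naive groups. The 9 genes cannot be set against it there, because they were chosen for a difference between these groups.

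Transcription factors of medium spiny neurons were mixed in the comparisons with vehicle tumor. Between the naive groups 11 of 15 rose and none fell (median 1.42), in vehicle tumor 7 rose and 8 fell (median -0.86), and in MRX-2843 tumor 9 were higher and 5 lower than in vehicle tumor (median 1.47). Against MRX-2843 naive brain, 5 were higher and 6 lower in MRX-2843 tumor (median -0.19). The largest rises in vehicle tumor, chosen after their values were seen, were 4.29 for Six3, 3.63 for Zfp521, 3.57 for Ikzf1 and 3.06 for Zfp503. Which cells carried these RNAs cannot be told in bulk tissue, so the rises need not be in medium spiny neurons. Bcl11b (CTIP2, also of deep cortical layers) differed by 0.29 ± 0.07 between the naive groups (adjusted p = 0.0089; 0.22 and adjusted p = 0.14 without vehicle naive replicate 1) and fell by 4.94 ± 0.09 in vehicle tumor (adjusted p = 1.7e-15). Foxp1, shared with cortex, had -0.20 ± 0.09 between the naive groups (adjusted p = 0.16) and fell by 0.86 ± 0.09 in vehicle tumor (adjusted p = 1.1e-06). Meis2 had 0.16 ± 0.07 between the naive groups (adjusted p = 0.12) and fell by 2.34 ± 0.07 in vehicle tumor (adjusted p = 5e-13). The order of levels shared by the 9 genes held for 5 of 6 transmitter genes, 13 of 25 signalling genes and 7 of 15 transcription factors.

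**Figure D4:**
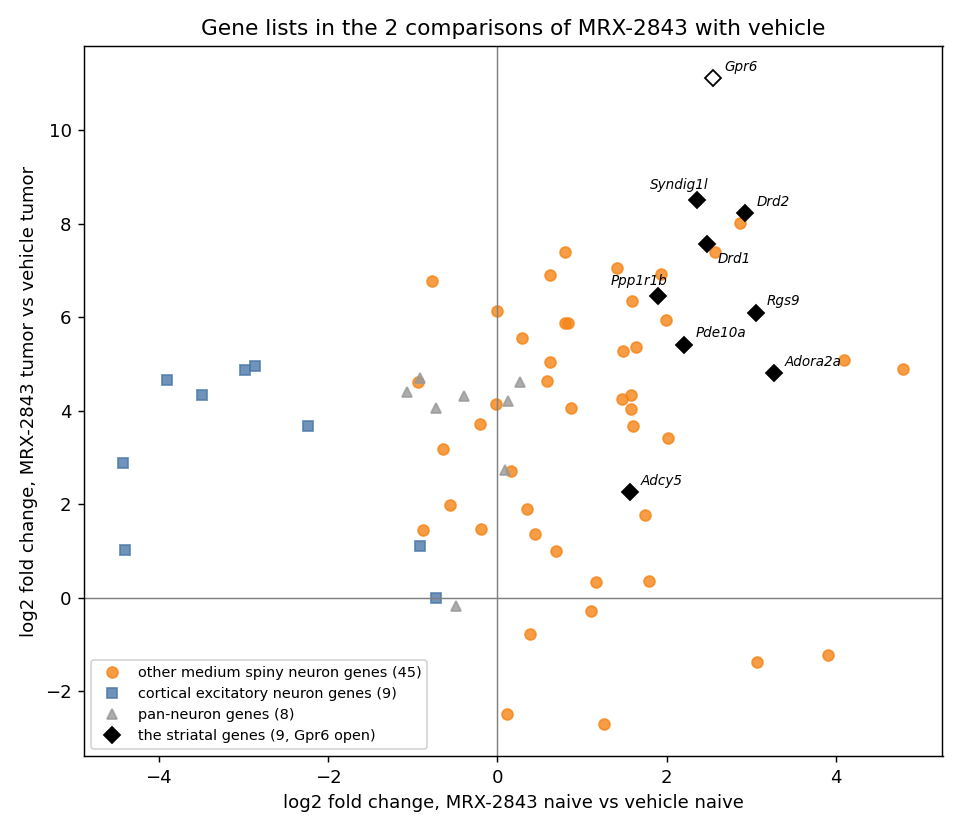
Log2 fold change of MRX-2843 against vehicle in naive brain (horizontal) and in tumor (vertical), 1 point per gene (Drd3 left out; the open Gpr6 point depends on the prior count). The 9 striatal genes lie at 1.57 to 3.27 in naive brain, and all 9 cortical genes lie to the left of 0.

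Markers of other cell types moved with these results. The 9 genes of cortical excitatory neurons all fell in MRX-2843 naive brain against vehicle naive brain (median -2.98). Slc17a7, the vesicular glutamate transporter of cortical neurons, was at 1698 and 1671 CPM in vehicle naive brain, 39.1 and 40.2 CPM in vehicle tumor, 152.4 and 147.9 CPM in MRX-2843 naive brain and 765.6 and 824.0 CPM in MRX-2843 tumor. It fell by 3.49 ± 0.05 between the naive groups (adjusted p = 1.8e-14), while Tbr1, a transcription factor of deep layers, fell by 2.87 ± 0.15 (adjusted p = 4e-09) and Cux2, of upper layers, by 0.73 ± 0.07 (adjusted p = 1.3e-06). Cortical genes were higher again in MRX-2843 tumor than in MRX-2843 naive brain for 9 of 9 (median 2.40), a pair of groups between which the striatal genes were close. Per 100 CPM of pan-neuron genes, cortical genes summed with vehicle to 34.9 and 35.1 in naive brain and to 35.2 and 35.4 in tumor. With MRX-2843 they summed to 6.62 and 6.28 in naive brain and to 27.7 and 29.6 in tumor. Cux2 was at 130.4 and 135.7 CPM in vehicle naive brain and at 96.0 and 94.1 CPM in vehicle tumor, and the near-equal vehicle ratios rested on it and Rbfox3. Without Rbfox3 alone, the 9 cortical genes per 100 CPM were with vehicle at 36.3 and 36.5 in naive brain and at 66.1 and 65.8 in tumor. With MRX-2843 they were at 6.89 and 6.52 in naive brain and at 29.1 and 31.1 in tumor. Without Cux2 as well, the other 8 were with vehicle at 34.1 and 34.2 in naive brain and at 25.5 and 26.6 in tumor. With MRX-2843 these 8 were at 4.88 and 4.70 in naive brain and at 26.4 and 28.5 in tumor. The order of the vehicle groups thus depended on the genes kept. The part of this shift of cortical markers in the striatal levels was not tested.

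Of 9 striatal interneuron genes, 7 rose and 1 fell between the naive groups (median 0.96), and their summed level ranged from 403.2 to 403.8 CPM in vehicle naive brain, 67.0 to 77.8 CPM in vehicle tumor, 555.0 to 561.5 CPM in MRX-2843 naive brain and 328.9 to 375.6 CPM in MRX-2843 tumor. Sst rose by 0.38 ± 0.07 (adjusted p = 0.00097) and Nos1 by 0.96 ± 0.10 (adjusted p = 4.5e-06), and Npy, also made by cortical interneurons, fell by 0.25 ± 0.08 (adjusted p = 0.048). The cholinergic genes of this list, chosen after their values were seen, were low with vehicle and rose further than any of the 9 striatal genes. Whether striatal interneurons or other cholinergic cells carried them cannot be told in bulk tissue of an unstated region. Chat, the enzyme that makes acetylcholine, was at 0.373 and 0.507 CPM in vehicle naive brain and at 9.95 and 8.93 CPM in MRX-2843 naive brain (log2 fold change 4.42 ± 0.36, adjusted p = 4.5e-07 in edgeR's test). The transcription factor Lhx8 rose by 5.18 ± 0.41 (adjusted p = 3.5e-07), the vesicular acetylcholine transporter Slc18a3, which lies within Chat on the same strand so that reads may be shared, by 4.19 ± 0.41 (adjusted p = 2.9e-06) and the choline transporter Slc5a7 by 3.94 ± 0.39 (adjusted p = 3.4e-06), beside a highest member value of 3.27. In vehicle tumor 7 interneuron genes fell and 1 rose (median -2.24). Against vehicle tumor 7 were higher and 1 lower in MRX-2843 tumor (median 3.96), and 7 fell there against MRX-2843 naive brain (median -1.02).

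Genes of the midbrain and thalamus were mixed. Of 5 midbrain dopamine genes tested (En1 was too low), 2 rose and 1 fell between the naive groups, Th by 1.27 and Nr4a2 by -2.84 on the log2 scale, and 4 fell in vehicle tumor. Of 7 thalamic genes, 3 rose between the naive groups, among them Tcf7l2 by 2.33 and Prkcd by 0.70, and in vehicle tumor 5 rose and 2 fell. There Slc17a6 (vesicular glutamate transporter 2, chosen after its values were seen) fell by 6.61 ± 0.41 on the log2 scale (adjusted p = 1.5e-09). Of 5 choroid plexus genes, none passed between the naive groups, and 1 rose (Aqp1) and 1 fell (Ttr) in vehicle tumor. All 6 oligodendrocyte genes fell in vehicle tumor (median -4.31), where all 6 microglia genes (median 3.27) and all 6 genes of dividing cells (median 5.65) rose. The summed oligodendrocyte level was 7257 to 7323 CPM in vehicle naive brain, 429.9 to 448.4 CPM in vehicle tumor, 7382 to 7460 CPM in MRX-2843 naive brain and 13728 to 14175 CPM in MRX-2843 tumor. The summed microglia level was 267.8 to 270.4, 2503 to 2504, 291.2 to 301.6 and 352.9 to 362.4 CPM in the same groups. Between the naive groups these glial sums differed far less than the striatal sum, and their part in the striatal levels of vehicle tumor was not tested.

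**Figure D5:**
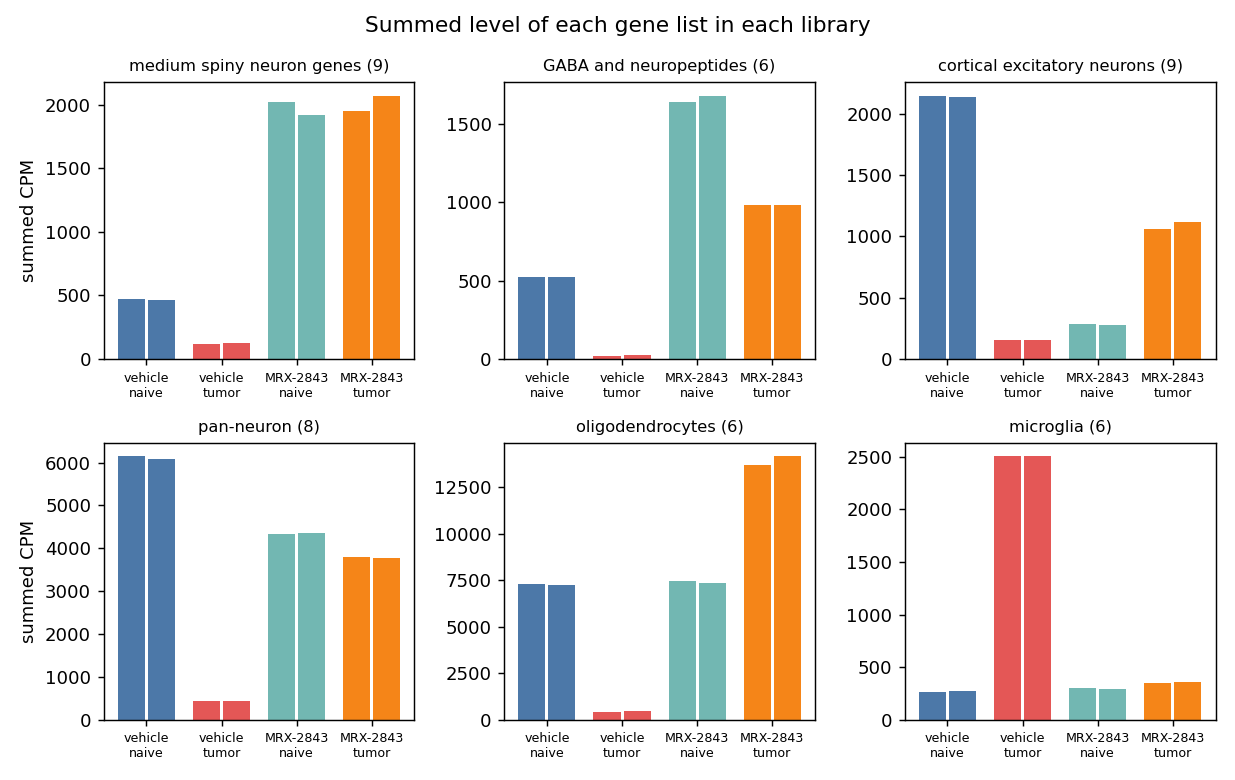
Summed CPM of 6 gene lists with 1 bar per library, colored by group, on linear axes that start at 0. The striatal genes are at 1918 to 2072 CPM in all 4 MRX-2843 libraries, while cortical genes are highest in vehicle naive brain and microglia genes in vehicle tumor.

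The 8 genes outside the 9 whose pattern was most like theirs were found by Pearson's r between log2 CPM and the mean standardised log2 CPM of the members, over the 8 libraries and 13271 genes ranked; the 8 points fall into the 4 groups, so r gives likeness only. They were Inf2, an actin-nucleating formin (r = 0.998), Firre, an X-linked long noncoding RNA (0.998), Ankrd10 (0.998), Gng7 (0.997), Col6a4, a collagen chain (0.997), Thbs3, a thrombospondin (0.995), Zmym6 (0.995) and Lrrc10b (0.995). Lrrc10b resembled the members in size as well, with 21.3 and 18.6 CPM in vehicle naive brain, 0.809 and 1.13 CPM in vehicle tumor, 97.9 and 89.4 CPM in MRX-2843 naive brain and 121.9 and 131.7 CPM in MRX-2843 tumor. Inf2 had the same order over a range that was smaller on the log2 scale. It was at 148.8 and 142.7 CPM, 49.3 and 51.6 CPM, 344.9 and 313.0 CPM, and 306.5 and 327.1 CPM in the same groups. Col6a4 was low throughout, at 0 to 9.19 CPM. Among the 9 genes themselves the pairwise r over the 8 libraries ran from 0.923 to 0.999.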

How the data were processed

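RNA-seq read counts per gene were analysed for 8 mouse libraries in 4 groups of 2. The authors deposited raw counts, whole numbers per gene with no normalization, per the file's values and header. STAR 2.7.7a, SAMtools, featureCounts and Subread, with the builds hg38 and mm10, are named without roles in the submitters' processing notes, and the strand setting is not given in the sources used here. Identifiers matched GENCODE M21 (GRCm38) for 52133 genes (94.1%), from which coordinates and exon lengths came.

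A quasi-likelihood model of the 4 group means was fitted in edgeR 4.0.16 (R 4.3.3), after filterByExpr with its minimum count of 10 and TMM scaling (4 residual degrees of freedom, biological coefficient of variation 21.0%). P-values were adjusted by Benjamini-Hochberg over all 24356 genes tested, with calls under 0.05. Each SE was obtained by dividing the absolute log2 fold change by the root of its F statistic. CPM use TMM-scaled totals, the likeness ranking used log2(CPM + 0.5) with a mean log2 CPM of at least 2, and ratios within a library add 0.5 counts. The fit was checked on simulated counts. Tables were made in Python 3.11.15 (NumPy 2.4.6, pandas 2.3.3, SciPy 1.17.1) and plots with matplotlib 3.10.9. Depth is 51150569 to 112938462 counts per library, and each group has 2 libraries.

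The members and gene lists were chosen with earlier results of these data known. No test of a member is printed, since all 4 groups took part in choosing them; the planned test in vehicle tumor against vehicle naive brain is given as values. Named genes are the members, the 3 most abundant genes of each of 12 marker lists over all libraries, and the 8 most similar genes; others are marked as chosen after their values were seen. A gene that this rule names is not reported here. Alternatives were DESeq2 1.42.0 as test or scaling, library totals, no filter or a stricter one, a replicate block, only the 2 groups compared, no mitochondrial genes, leaving out each library and, added after the data were seen, leaving out both MRX-2843 tumor libraries, and sums without Adcy5, Rbfox3 or Cux2.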

Additional observations from a re-analysis of the deposited data

Results flagged for a closer look

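The log2 difference between MRX-2843 and vehicle differed between tumor and naive brain for the non-member genes given here, by edgeR's quasi-likelihood test of the interaction (adjusted p under 0.05, which 51.6% of all genes tested passed). Values are the log2 difference in tumor minus that in naive brain, and the cause was not tested. Among the genes given here, the highest values were those of 2 cortical genes whose differences had opposite signs in the tissues. They were Tbr1 at 7.83 (4.96 in tumor and -2.87 in naive brain) and Slc17a7 at 7.81 (4.33 and -3.49), while the cortical Cux2 was at 0.73. The highest value was 8.55 over the whole cortical list and 17.7 over all genes tested.

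Among medium spiny neuron genes it was 6.13 for Arpp21, 2.76 for Pde1b, 2.45 for Gng7, 4.83 for Penk, 4.05 for Gad1, 2.06 for Gad2, 5.26 for Bcl11b, 2.54 for Meis2 and 1.67 for Foxp1. Over all 46 such genes, 32 were higher and 8 lower. Among interneuron genes it was 4.87 for Sst, 4.20 for Npy and -1.68 for Nos1.

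Pan-neuron genes gave 5.61 for Snap25, 4.08 for Eno2 and 2.64 for Map2, and oligodendrocyte genes 5.69 for Mbp and 7.03 for Mobp. Midbrain genes gave 4.29 for Nr4a2, 3.43 for Th and 1.69 for Ddc. All the thalamic, microglia and dividing cell genes given here were below 0, as were Nos1 and Aqp1, with -3.71 for Prkcd, -4.81 for Tcf7l2, -0.65 for Plekhg1, -3.70 for C1qa, -3.93 for C1qb, -2.56 for Csf1r, -3.13 for Mki67 and -3.08 for Cdk1. Of the choroid plexus genes, Aqp1 gave -8.59 and Ttr 2.46.

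The genes most like the members gave 1.48 for Inf2, 0.79 for Firre, 0.82 for Ankrd10, 5.63 for Col6a4, 1.02 for Thbs3, 0.87 for Zmym6 and 4.79 for Lrrc10b. Col6a4 had 0.0694 and 0 CPM in vehicle tumor, so its value depends on the prior count.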

How the results depend on the processing

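The 9 members' log2 values in vehicle tumor against vehicle naive brain stayed below 0 in all alternatives run. Counts over the other 46 medium spiny neuron genes stayed within 1.5 times the reported ones, at 30 to 34 higher between the naive groups, 36 to 38 higher between the tumor groups and 34 to 35 lower in vehicle tumor. The excess of the members over pan-neuron genes was 2.79 to 3.05 on the log2 scale between the naive groups and 1.98 to 2.41 between the tumor groups when a library was left out. Arpp21, at -0.00 between the naive groups, ran from -0.016 to 0.0097 with a library left out and changed sign; the cause was not tested. Meis2 (0.20 in MRX-2843 tumor against MRX-2843 naive brain, adjusted p = 0.049) lost its call in 8 alternatives, with edgeR adjusted p of 0.056 to 0.28. Library totals without scaling shifted the median of all genes by 0.24 in vehicle tumor against vehicle naive brain, where Adcy5 was then at -0.43, and by -0.21 between the tumor groups; no member changed direction there. Without both MRX-2843 tumor libraries, 32 other medium spiny neuron genes were higher between the naive groups.

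Replicate numbers did not pair the samples (correlation of same-numbered deviations -0.087 to 0.051 over 13280 genes). With the replicate block, 33 other medium spiny neuron genes were higher and 4 lower between the naive groups, and all 9 members' values stayed below 0 in vehicle tumor; Meis2 had an adjusted p of 0.063. The table's depth limits Drd1, Drd2, Gpr6 and Syndig1l in vehicle tumor, where 0 to 38 reads per library were counted.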
